A study of Homo sapiens with 6 samples.

Results

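Expression of 9 genes of intermediate progenitors and the neurogenic programme was examined in human forebrain organoids by bulk RNA sequencing. The genes EOMES, PPP1R17, NEUROG1, NEUROG2, INSM1, NHLH1, PENK, SSTR2 and NEUROD4 were taken by symbol from the deposited table, where all 9 of 9 were found among 18056 listed genes, and all 9 had enough counts to be tested among 13842 genes. The organoids were grown from DYR0100, an induced pluripotent stem cell line of wild-type genotype, by a dorsal forebrain differentiation protocol. One group of 3 libraries received vehicle and the other 3 received the amyloid-β peptide Aβ42 at 5 µM, both for 6 days and in 1 labelled batch. The age of the organoids at treatment, the aggregation state of the peptide, the vehicle and how many organoids went into a library are not given in the sources used here, and both groups come from 1 line, so the p-values measure the spread between these libraries, which the series describes as independent biological replicates.

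In the developing cortex, radial glia line the ventricle and divide to give intermediate progenitors, which lose contact with the ventricle, divide again and yield excitatory neurons. Proneural factors of the basic helix-loop-helix (bHLH) family, chiefly the neurogenins, start this step, while Notch signalling through HES factors holds neighbouring cells as radial glia. The T-box factor EOMES, also called TBR2, defines the intermediate progenitor state, and further bHLH and zinc-finger factors then drive cell cycle exit and neuronal differentiation. In bulk RNA, fewer cells of a type and less RNA per cell cannot be told apart.

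Neurogenic bHLH factors bind the E-box CANNTG, so the 250 bases before the promoter start listed for each gene were searched for it. Of the 9 genes, 7 had an entry in the RefSeq promoter table (build GRCh38.p14). INSM1 and PENK had none. For EOMES the window (chr3:27722324-27722573) lies inside the gene's RefSeq span (chr3:27715953-27722713, minus strand), downstream of the outermost start. The other windows directly precede the gene positions given below. An E-box was present in 4 of these 7 windows (EOMES, PPP1R17, NHLH1 and NEUROD4) and in 62.2% of the 27305 windows in the table. The share among the 7 was thus no higher than among all windows. The elements are shown, with the bases around them, so that the forms of the motif can be compared, with the E-box in capitals, 5′ to 3′ on the gene's strand:
EOMES CAGGTG (chr3:27722415-27722444, minus strand): cccgcgagtcggCAGGTGggtagccccggc
PPP1R17 CAGCTG (chr7:31687161-31687190, plus strand): tggcaacagcagCAGCTGgtccctagataa
NHLH1 CAGATG (chr1:160366849-160366878, plus strand): atgcatggagaaCAGATGtccctgctcccc
NEUROD4 CAAGTG (chr12:55019846-55019875, plus strand): ggaggagcctttCAAGTGggcgtgtctttc
NEUROD4 CAGCTG (chr12:55019916-55019945, plus strand): ctcctccctggtCAGCTGggagagcaatca
The form CAGATG, itself a case of CANNTG, was found in NHLH1 alone of the 7 and in 12.2% of all windows. The form CAGCTG, also a case of CANNTG, was found in PPP1R17 and NEUROD4 and in 13.8% of all windows. The HES-type sequence CACNAG was found in PPP1R17 alone and in 32% of all windows, and the T-box sequence AGGTGTGA in none of the 7 and in 0.787% of all windows. Both strands were searched throughout, and a match describes the letters only.

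The paralogues NEUROG1 and NEUROG2 differed in their values, as described next, and neither window held an E-box. Their whole windows, 250 bases each, are shown for that contrast, 5′ to 3′, with no bases in capitals because no E-box was found:
NEUROG1 (chr5:135535965-135536214, minus strand): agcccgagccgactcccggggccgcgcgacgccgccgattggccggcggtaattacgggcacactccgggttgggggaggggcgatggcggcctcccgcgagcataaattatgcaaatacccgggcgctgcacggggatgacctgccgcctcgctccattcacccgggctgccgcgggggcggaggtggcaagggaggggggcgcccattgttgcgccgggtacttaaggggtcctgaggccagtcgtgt
NEUROG2 (chr4:112516181-112516430, minus strand): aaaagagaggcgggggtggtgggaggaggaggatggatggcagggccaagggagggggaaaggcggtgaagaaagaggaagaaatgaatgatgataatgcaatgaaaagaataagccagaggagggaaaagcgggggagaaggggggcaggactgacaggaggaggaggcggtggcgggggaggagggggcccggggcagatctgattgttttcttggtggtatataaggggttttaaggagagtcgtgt

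All 8 genes other than NEUROG2 had lower mean levels after Aβ42, and NEUROG2 did not. With edgeR's quasi-likelihood test and no block, 0 of the 9 reached the adjusted threshold of 0.05, and 0 of all 13842 genes did (0%). Before adjustment, 8 of the 9 were below 0.05 as lower and 0 as higher, compared with 11.5% and 12.4% of all genes. Libraries of the same replicate number deviated together to a degree (r of 0.13 to 0.41), although the series names no pairing. With the replicate number as a block, 6 of the 9 (EOMES, PPP1R17, NEUROD4, NHLH1, PENK and INSM1) fell at the adjusted threshold and 0 rose. Of all genes, 7.05% and 7.12% did. All values given with the block depend on this pairing, which is not established. Without Aβ42 replicate 2, the treated library nearest to the vehicle libraries, the same 6 passed as lower and 0 as higher (11.6% and 11.5% of all genes). Leaving out any other library gave no calls. All adjusted p-values given below without Aβ42 replicate 2 depend on that choice and are not separate support. DESeq2 called 4 (EOMES, PPP1R17, NHLH1 and SSTR2) of the 7 to which it gave an adjusted p-value as lower (3.72% of the genes it adjusted) and 0 as higher (3.4%). In 6 of the 9 genes (EOMES, PPP1R17, NEUROG1, NHLH1, SSTR2 and NEUROD4) every Aβ42 value lay below every vehicle value, which held for 13.4% of all genes, and in 0 of the 9 did every Aβ42 value lie above, which held for 13.6%. The median log2 fold change of the 9 was -0.76, beside 0.0032 over all genes tested.

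Libraries held between 16465390 and 16742958 estimated counts, with TMM factors of 0.996 to 1.01. Aβ42 replicate 2 stood nearer to the vehicle libraries than to its own group (mean Pearson correlation of log2 CPM, that is counts scaled to library total, 0.9931 and 0.9898), and leaving it out raised the number of genes past the adjusted threshold from 0 to 3224. The dorsal forebrain label was checked with 10 identity genes: all 10 had enough counts to test, and their summed level was 1759 to 1812 TPM, a level scaled for transcript length and library total, in vehicle and 1661 to 1818 TPM in the Aβ42 group. The median log2 fold change was 0.06 for the 1385 shortest and -0.04 for the 1385 longest transcripts. By length, PENK was among the shortest (percentile 7.73) and SSTR2 among the longest (percentile 91.6). The part of transcript length in the result was not tested.

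Of the 2 neurogenins, which commit progenitors to the neuronal fate, NEUROG2 is the main one of the dorsal cortex. NEUROG2 (Entrez gene ID 63973, chr4:112513516-112516180) was at 64.3, 56.6 and 60.6 CPM in vehicle replicates 1 to 3 and at 65.5, 57.2 and 64.0 CPM in Aβ42 replicates 1 to 3. The ranges of the groups overlapped, and replicate 2 was lowest in both. Its log2 fold change of 0.04 ± 0.07 (SE) had a 95% confidence interval of -0.11 to 0.19 and an edgeR adjusted p of 0.749. On the TPM scale, and without vehicle replicate 2, its sign was negative (-0.0080 to -0.0053). In GENCODE 29, exons of NEUROG2 overlap the antisense transcript AC023886.1, and reads of the 2 cannot be separated if strand was not used in counting.

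NEUROG1 (4762, chr5:135534282-135535964), the paralogue with the lowest level of the 9 genes, stood at 1.14, 1.34 and 1.71 CPM in vehicle against 0.731, 0.534 and 0.90 CPM after Aβ42. These values rest on 19, 22 and 28 counts in vehicle and 12, 9 and 15 counts with Aβ42. The groups did not overlap, although counting alone gives an error of 20.9% at the vehicle depth, about the spread seen there (20.6%). Its log2 fold change was -0.94 ± 0.31, and the adjusted p-value was 0.119 without and 0.0526 with the replicate block. NEUROG1 passed in none of the 15 alternatives, and its log2 fold change without each library in turn ran from -1.13 to -0.77. DESeq2 gave it no adjusted p-value.

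NEUROD4 and NHLH1 are bHLH factors switched on downstream of the neurogenins as cells commit to differentiate. NEUROD4 (58158, chr12:55019974-55030017) measured 6.55, 6.26 and 6.16 CPM in vehicle and 3.41, 4.51 and 2.04 CPM in the Aβ42 libraries. The spread (SD over mean) was 3.18% in vehicle, below the counting error of 9.79% there, and 37.3% with Aβ42, and the groups did not overlap. For NEUROD4 the log2 fold change was -0.93 ± 0.23 (adjusted p-value 0.0765), with 0.00457 under the block. Without Aβ42 replicate 2 it was -1.21 (0.00189) and without Aβ42 replicate 3, the lowest library, -0.67.

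NHLH1 (4807, chr1:160367071-160372846), also called HEN1 or NSCL1, stood at 11.2, 12.5 and 11.8 CPM in vehicle against 5.85, 8.49 and 6.66 CPM after Aβ42. The lowest vehicle library was well above the highest Aβ42 library. This gave a log2 fold change of -0.76 ± 0.14, with an adjusted p-value of 0.0684 by edgeR without the block and 0.000875 with it, and -0.92 (0.000533) without Aβ42 replicate 2. NHLH1 ranked 36 by p-value among all genes tested without the block, close to PPP1R17 at 28.

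**Figure D1:**
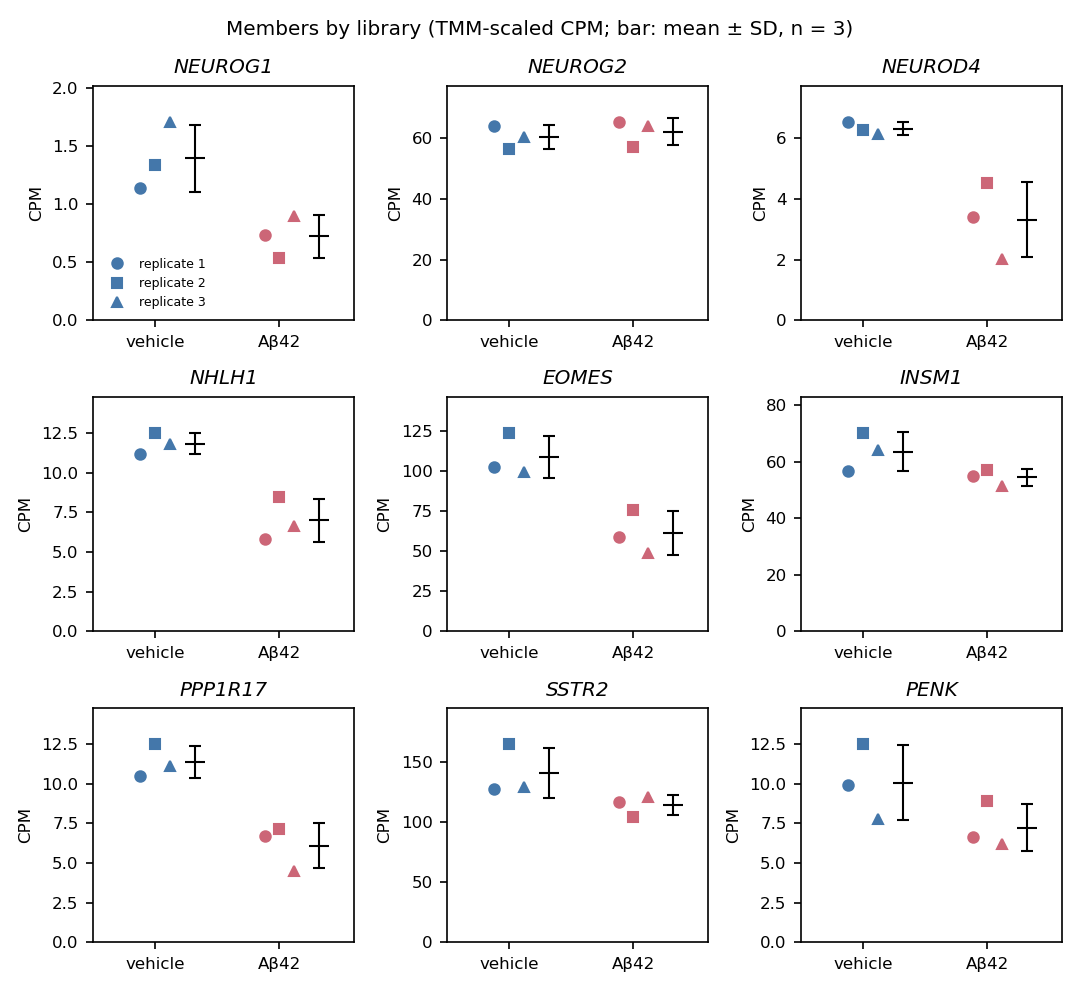
Level of each of the 9 genes in every library, as TMM-scaled CPM on a linear axis from 0 (blue, vehicle; red, Aβ42; symbol shape gives the replicate number; black bar and whiskers, mean ± SD, n = 3). EOMES lies at 99.4 to 124 CPM in vehicle and 49.1 to 75.7 CPM with Aβ42, whereas the NEUROG2 values of the groups overlap.

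EOMES, the T-box factor that defines intermediate progenitors, held the highest level per transcript length (TPM) of the 9 genes in vehicle. EOMES (8320, chr3:27715953-27722713) measured 102, 124 and 99.4 CPM in vehicle and 58.9, 75.7 and 49.1 CPM in the Aβ42 libraries, that is 109 ± 13.2 and 61.2 ± 13.5 CPM (mean ± SD, n = 3 each, as for all later values given with ± and a CPM or TPM level). Replicate 2 was the highest library in both groups, and each Aβ42 library was below the vehicle library of its number. EOMES thus had a log2 fold change of -0.83 ± 0.17, a difference of -43.6%, with an adjusted p-value of 0.0779 without the block. With the block it was -0.84 ± 0.06 with an adjusted p-value of 2.44e-06, and EOMES ranked 2 by p-value among the 13842 genes. DESeq2 gave EOMES 0.00428 after adjustment, and leaving out Aβ42 replicate 2 gave a log2 fold change of -1.01 (0.00333).

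INSM1, a zinc-finger factor that promotes the formation of basal progenitors and is expressed in cells leaving the cycle, differed by less. INSM1 (3642, chr20:20368104-20370949) stood at 56.5, 70.2 and 64.0 CPM in vehicle against 55.0, 57.0 and 51.3 CPM after Aβ42. The groups overlapped, since Aβ42 replicate 2 was above vehicle replicate 1. Its change on the log2 scale was -0.22 ± 0.08 (adjusted p-value 0.131), with 0.0346 under the block. Leaving out vehicle replicate 2, the highest library, gave -0.15, leaving out vehicle replicate 1 gave -0.30, and leaving out Aβ42 replicate 2 gave -0.26 (0.0466).

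PPP1R17, an inhibitor of protein phosphatases that marks human intermediate progenitors, measured 10.51, 12.5 and 11.1 CPM in vehicle and 6.70, 7.13 and 4.50 CPM in the Aβ42 libraries. No Aβ42 value reached the vehicle range. PPP1R17 (10842, chr7:31687215-31708455) had a log2 fold change of -0.90 ± 0.16 (adjusted p-value 0.0684), which ran from -1.02 (0.00137) without Aβ42 replicate 2 to -0.72 without Aβ42 replicate 3, with 0.000591 under the block.

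SSTR2, a receptor for the peptide somatostatin found on cortical progenitors and young neurons, stood at 128, 165 and 130 CPM in vehicle against 117, 105 and 121 CPM after Aβ42. The groups did not overlap, but 1 library, vehicle replicate 2, stood far above the other 5. SSTR2 (6752, chr17:73165010-73176633) differed by -0.30 ± 0.10 on the log2 scale (adjusted p-value 0.14), and by -0.17 when vehicle replicate 2 was left out. It was the 1 gene of the 9 whose p-value was larger with the block (0.0721 against 0.0192 before adjustment, 0.215 after it), while DESeq2 without a block gave 0.0269. Exons of SSTR2 overlap those of AC097641.1 on the same strand in GENCODE 29.

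PENK encodes proenkephalin, the precursor of the enkephalin opioid peptides. PENK (5179, chr8:56440957-56446641) measured 9.91, 12.5 and 7.81 CPM in vehicle and 6.64, 8.91 and 6.18 CPM in the Aβ42 libraries. The groups overlapped, as Aβ42 replicate 2 exceeded vehicle replicate 3, yet each Aβ42 library was below the vehicle library of its number. PENK had a log2 fold change of -0.48 ± 0.19 (adjusted p-value 0.172), with 0.0157 under the block. Leaving out vehicle replicate 2 gave -0.29, and leaving out Aβ42 replicate 2 gave -0.65 (0.0269). In GENCODE 29 exons of PENK overlap the antisense transcript AC012349.1.

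Taken 1 gene at a time, an exact two-sided permutation test over the 6 libraries gave p = 0.1, the smallest value that 3 against 3 allow, for the 6 genes whose groups did not overlap. It gave 0.2 for INSM1 and PENK and 0.6 for NEUROG2.

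**Figure D2:**
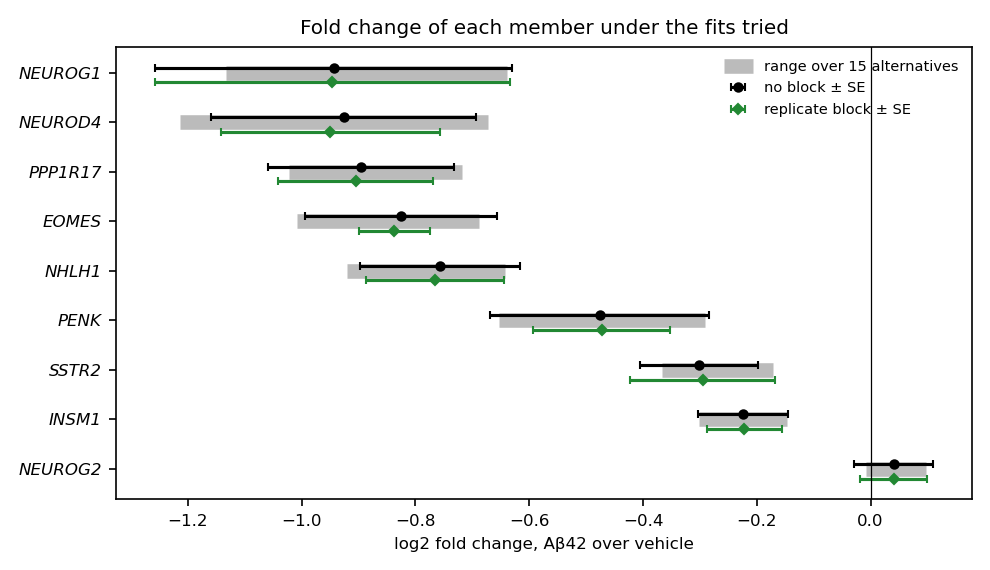
Log2 fold change of Aβ42 over vehicle for each gene without a block (black, ± SE) and with the replicate block (green, ± SE), with the range over the 15 alternatives in grey. NEUROG1, NEUROD4, PPP1R17, EOMES and NHLH1 lie between -0.94 and -0.76, PENK, SSTR2 and INSM1 between -0.48 and -0.22, and NEUROG2 at 0.04.

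The 9 genes differed in the size of their fold changes. The 5 with a log2 fold change of -0.5 or lower were NEUROG1, NEUROD4, PPP1R17, EOMES and NHLH1, a size reached by 2.77% of all genes tested. PENK, SSTR2 and INSM1 followed, and NEUROG2 stood alone above 0. Across the 6 libraries, log2 CPM of the 8 genes other than NEUROG2 correlated with one another at a median Pearson r of 0.77 over 28 pairs (range 0.31 to 0.98, highest for EOMES with PPP1R17). The 8 pairs with NEUROG2 had r from -0.70 to -0.05. These correlations describe 6 libraries that share the group difference. After each group's mean was removed, the 28 pairs ran from -0.78 to 0.90 (median 0.42) and the 8 pairs with NEUROG2 from -0.90 to 0.34 (median -0.64). Vehicle replicate 2 was the highest of the 6 libraries for 6 of the 9 genes, and Aβ42 replicate 3 the lowest for 5.

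Levels per transcript length, as TPM, ordered the vehicle organoids as EOMES (99.6 ± 13.1 TPM), NEUROG2 (74.5 ± 3.85 TPM), INSM1 (61.2 ± 7.31 TPM), SSTR2 (46.3 ± 7.48 TPM), PENK (26.6 ± 6.37 TPM), PPP1R17 (19.4 ± 2.11 TPM), NHLH1 (12.9 ± 0.885 TPM), NEUROD4 (4.25 ± 0.101 TPM) and NEUROG1 (2.50 ± 0.525 TPM). In that order INSM1 and SSTR2 overlapped over libraries, and so did PENK and PPP1R17, while the other neighbours did not. EOMES exceeded NEUROG2 in each of the 3 vehicle libraries. In each of the 3 Aβ42 libraries it lay below NEUROG2, narrowly in replicate 2 (67.8 and 68.9 TPM) and more widely in replicates 1 (52.25 and 78.4 TPM) and 3 (42.9 and 74.9 TPM).

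**Figure D3:**
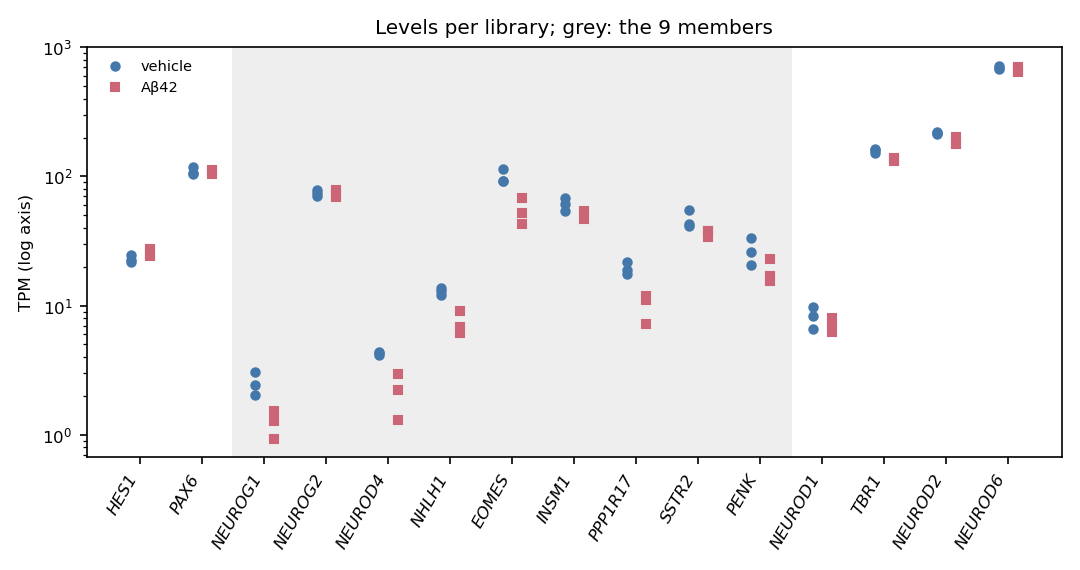
TPM on a log axis in each library (blue circles, vehicle; red squares, Aβ42) for HES1 and PAX6 of radial glia, the 9 genes (grey band) and 4 later neuronal factors. EOMES is above NEUROG2 in vehicle and below it with Aβ42, and PAX6 and NEUROD6 overlap between groups.

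The same contrast was expressed as ratios within a library, which were chosen after the values were seen. The CPM ratio of EOMES to NEUROG2 ran 1.59, 2.19 and 1.64 over the vehicle libraries and 0.899, 1.32 and 0.768 over the Aβ42 libraries. The groups did not overlap, and an exact two-sided permutation test gave p = 0.1, or 0.144 adjusted over the 13 ratios computed. Of the 8 genes set against NEUROG2, 6 had ratios that did not overlap, INSM1 and PENK being the exceptions. They were the same 6 whose own levels did not overlap. As NEUROG2 differed little, its ratios largely restate those levels, and the share of all genes with such ratios was not computed. Within replicate numbers, all 8 ratios were lower with Aβ42 in 3 of 3 pairs. For the 6 without overlap that outcome was fixed by the lack of overlap, and only INSM1 and PENK could have differed. The share of all genes lower in 3 of 3 pairs was not computed. EOMES also stood lower against the radial glia factor PAX6 (1.05 ± 0.185 in vehicle and 0.573 ± 0.118 with Aβ42, n = 3 each) and against TBR1, the T-box factor that follows EOMES in newborn neurons (0.476 ± 0.0582 and 0.304 ± 0.0631), without overlap in either. Against MKI67, a marker of dividing cells, the EOMES ratio was 0.635 ± 0.0672 in vehicle and 0.572 ± 0.0395 with Aβ42, and the groups overlapped, although the ratio was lower in 3 of 3 pairs, in replicate 3 by little (0.5578 and 0.5571). NEUROG2 against PAX6 was 0.580 ± 0.0487 and 0.584 ± 0.0461.

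Genes that precede the intermediate progenitor state were divided in direction. Of 25 radial glia, Notch, HES and ID genes tested, 10 were lower and 15 higher, with a median of 0.03 on the log2 scale, and 4 lower and 4 higher genes had an unadjusted p-value under 0.05. Under the block 5 fell and 1 rose. PAX6 was at 105 ± 7.26 and 107 ± 1.89 CPM and the Notch effector HES1 at 11.8 ± 0.654 and 13.6 ± 0.904 CPM, with log2 fold changes of 0.03 ± 0.06 and 0.21 ± 0.10. HES5, another Notch effector, had a log2 fold change of 0.43 ± 0.32. HOPX, a gene of outer radial glia, had the smallest p-value of the list (log2 fold change -0.45 ± 0.13, adjusted p-value 0.114, 0.000503 under the block). The receptor NOTCH1 was next (0.27 ± 0.09, 0.128, 0.00203 under the block). HOPX and NOTCH1 were at -0.56 (0.0327) and 0.34 (0.0228) without Aβ42 replicate 2.

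Other factors that act beside the neurogenins differed in both directions. Among 12 tested proneural factors and partners, 9 were lower and 3 higher (median -0.06), with 3 lower and 1 higher at an unadjusted p-value under 0.05. The same numbers, 3 lower and 1 higher, passed with the block. SOX11, which promotes neuronal differentiation, had a log2 fold change of -0.25 ± 0.07 (adjusted p-value 0.0819, 0.00636 under the block) and the E-protein TCF12, a dimer partner of bHLH factors, -0.24 ± 0.07 (0.0856, 0.005 under the block). Without Aβ42 replicate 2 they were at -0.32 (0.00228) and -0.30 (0.00386). The 1 higher gene to pass was PROX1, a homeobox factor, named after its values were seen. It stood at 2.88, 2.74 and 2.93 CPM in vehicle against 6.58, 3.56 and 4.14 CPM after treatment, without overlap. Its log2 fold change was 0.74 ± 0.24 (adjusted p-value 0.113, 0.0215 under the block), 0.91 (0.0104) without Aβ42 replicate 2 and 0.43 without Aβ42 replicate 1, the highest library.

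Notch ligands and commitment genes were divided. Of 18 tested, 8 were lower and 10 higher (median 0.01), with 3 lower and 2 higher at an unadjusted p-value under 0.05, and with the block 4 passed as lower and 0 as higher. The ligands DLL1 and DLL3, which committed cells present to their neighbours, had log2 fold changes of 0.01 ± 0.09 and -0.01 ± 0.12, and both took either sign among the alternatives. TFAP2C, a transcription factor of basal progenitors, had one of -0.40 ± 0.10 (adjusted p-value 0.0734, 0.00343 under the block) and LZTS1, which acts in delamination, one of -0.17 ± 0.05 (0.113, 0.0472 under the block). These became -0.47 (0.00473) and -0.18 (0.0410) without Aβ42 replicate 2. UNC5D, a netrin receptor of the subventricular zone that was picked after its values were seen, stood at 18.55, 25.6 and 20.9 TPM in vehicle against 9.48, 16.3 and 10.6 TPM after treatment (log2 fold change -0.79 ± 0.23, adjusted p-value 0.126, 7.32e-06 under the block, and -1.06 with 0.00585 without Aβ42 replicate 2).

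Genes of later neuronal stages had log2 fold changes from -0.53 to 0.34. Of 17 tested genes of newborn excitatory neurons, 13 were lower and 4 higher (median -0.14), and before adjustment 7 lower and 0 higher genes were under 0.05. Under the block 6 fell and 1 rose. NEUROD6, a bHLH factor of postmitotic cortical neurons, was at 470.4 ± 14.98 CPM in vehicle and 470.1 ± 23.1 CPM after Aβ42. NEUROD2, its relative, had a log2 fold change of -0.17 ± 0.05 and TBR1 one of -0.18 ± 0.04, both without overlap between groups (adjusted p-values 0.0986 and 0.0734, under the block 0.0385 and 0.0203). NEUROD1 was at 7.34 ± 1.39 and 6.64 ± 0.875 CPM. The RNA-binding proteins ELAVL4 and ELAVL2 had the smallest p-values of the list, with log2 fold changes of -0.31 ± 0.05 and -0.29 ± 0.07 (0.000994 and 0.00168 under the block). Without Aβ42 replicate 2, NEUROD2 (-0.22, 0.00598), TBR1 (-0.19, 0.00996), ELAVL4 (-0.31, 0.00195) and ELAVL2 (-0.35, 0.00275) passed.

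**Figure D4:**
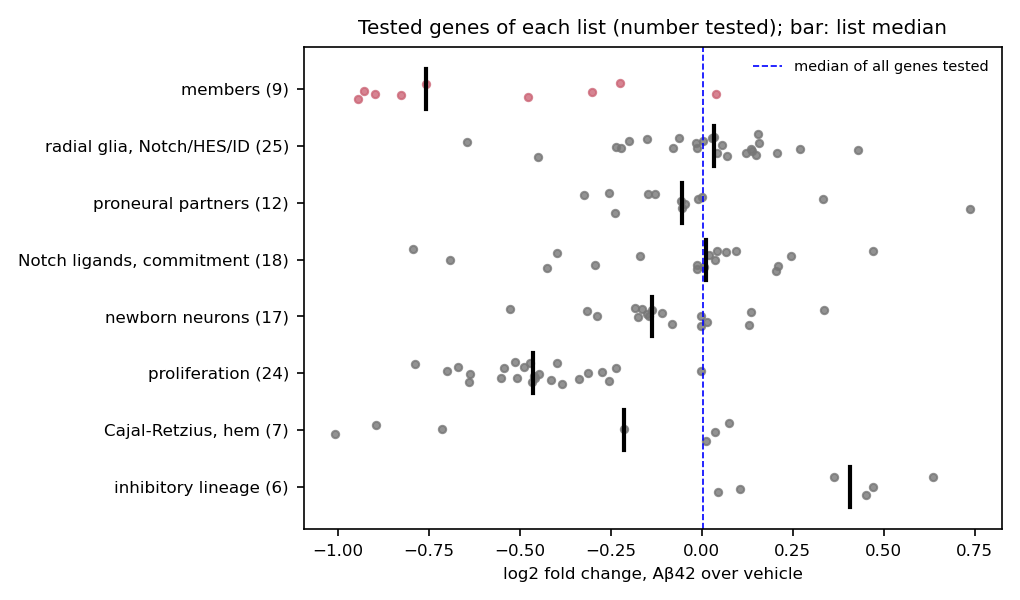
Log2 fold change of Aβ42 over vehicle for every tested gene of 8 lists (points), the list median (black bar) and the median of all genes tested (dashed line), with the number of genes tested in brackets. The 9 genes have a median of -0.76 and the proliferation genes one of -0.46. Radial glia genes have a median of 0.03 (range -0.64 to 0.43) and commitment genes one of 0.01 (range -0.79 to 0.47).

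Cell cycle genes were lower in the same libraries as the intermediate progenitor genes, and their part in the result was not tested. All 24 tested had a log2 fold change below 0 (median -0.46, nearest to 0 at -0.00086), 20 of them at an unadjusted p-value under 0.05, and 20 passed with the block. Their summed level was 1019 to 1167 TPM in vehicle and 668 to 949.97 TPM with Aβ42. CENPE and NUSAP1, a motor protein and a microtubule-binding protein of mitosis, had the smallest p-values, each with a log2 fold change of -0.51. MKI67 measured 171 ± 17.9 CPM in vehicle and 108 ± 27.8 CPM after Aβ42 (log2 fold change -0.67 ± 0.19, adjusted p-value 0.126, 0.022 under the block). These 3 were at -0.55 (0.00114), -0.63 (0.000206) and -0.90 (0.00045) without Aβ42 replicate 2.

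Some of the 9 genes are also used by other lineages, whose markers were therefore measured. Of 12 Cajal-Retzius and cortical hem genes 7 could be tested, of which 4 were lower and 3 higher (median -0.21). Those with an unadjusted p-value under 0.05 were 3 lower and 0 higher, and these 3 passed with the block. The summed level of this list was 45.6 to 50.6 TPM in vehicle and 30.8 to 34.0 TPM with Aβ42, and none of its genes was at 0 in all libraries. The 3 were the hem genes WNT8B (log2 fold change -1.01 ± 0.27, 0.00494 under the block) and LMX1A (-0.71 ± 0.29, 0.0433), the latter named after its values were seen, and the chemokine CXCL12 (-0.89 ± 0.16, 0.000397), whereas RELN, TP73 and CALB2 of Cajal-Retzius neurons were at 0.07, 0.04 and -0.21. Without Aβ42 replicate 2, WNT8B was at -1.47 (0.000582), LMX1A at -0.98 (0.0354) and CXCL12 at -0.92 (0.00453). The part of these cells in the levels of the 9 genes was not tested.

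Inhibitory lineage genes were at 24.5 to 39.5 TPM in sum in vehicle and 33.7 to 46.5 TPM with Aβ42. All 6 of the 12 that could be tested were higher (median 0.41), 0 of them at an unadjusted p-value under 0.05 and 0 with the block. DLX2 and DLX5, homeobox factors of this lineage, had log2 fold changes of 0.64 ± 0.45 and 0.45 ± 0.36. Sensory, retinal and autonomic genes summed to 3.19 to 3.43 TPM in vehicle and 3.70 to 4.65 TPM with Aβ42, and ISL1 and TLX3 had 0 counts in every library. Only PRPH and EYA1 of the 12 such genes in the table could be tested, with log2 fold changes of 1.003 ± 0.36 and 0.44 ± 0.40, PRPH at an unadjusted p-value of 0.0174, and 0 passed with the block. PRPH was at 1.15 (0.047) without Aβ42 replicate 2 and 0.67 without Aβ42 replicate 3. The part of these lineages in the result was not tested.

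Choroid plexus genes varied widely within groups, summing to 3350 to 7575 TPM in vehicle and 2840 to 6666 TPM with Aβ42. Of 7 tested 6 were lower (median -0.48), 0 at an unadjusted p-value under 0.05 while 2, CLIC6 (-0.57 ± 0.55, 0.000309) and OTX2 (-0.66 ± 0.56, 0.00612), passed with the block. Without vehicle replicate 2 CLIC6 was at -0.07 and OTX2 at -0.28, and without Aβ42 replicate 2 at -1.09 and -1.39, passing in neither case. Astrocyte and oligodendrocyte genes summed to 48.9 to 65.8 and 38.5 to 52.6 TPM. Of 7 tested 5 were lower (median -0.44), with 2 lower and 1 higher at an unadjusted p-value under 0.05. S100B (-1.25 ± 0.35) and ALDH1L1 (0.33 ± 0.12) had the smallest p-values of that list, and S100B alone passed with the block (0.000941). S100B was at -1.69 (0.00574) without Aβ42 replicate 2. Mesenchymal, endothelial and microglial genes summed to 13.6 to 31.8 and 7.71 to 14.4 TPM. Of 4 tested 3 were lower (median -0.66), with CLDN5 at -0.74 ± 0.35 and DCN at -1.17 ± 0.52 and 0 at an unadjusted p-value under 0.05, DCN passed with the block (2.28e-06), and TREM2 had 0 counts in every library. Without vehicle replicate 2 DCN was at -0.65 and CLDN5 at -0.29, and without Aβ42 replicate 2 at -1.59 and -0.95, passing in neither case. The part of these 3 lists in the result was not tested.

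Genes that work with single members were followed last. Of 7 tested corepressors that INSM1-type factors recruit, with REST, 3 were lower and 4 higher (median 0.01). RCOR1 and RCOR2 had the smallest p-values (log2 fold changes 0.14 ± 0.07 and 0.21 ± 0.11), and RCOR2 passed with the block (0.0322). RCOR2 was at 0.10 without vehicle replicate 2, and RCOR1 at 0.21 (0.013) without Aβ42 replicate 2. Of 8 phosphatase subunits and inhibitors related to PPP1R17, 2 were lower and 6 higher (median 0.05), 0 at an unadjusted p-value under 0.05, with PPP1CC at 0.10 ± 0.05 and PPP1CA at -0.17 ± 0.08, or 0.14 (0.0406) and -0.26 (0.0189) without Aβ42 replicate 2. Of 7 tested opioid and somatostatin genes, 5 were lower and 2 higher (median -0.04). PCSK1, a convertase that cuts peptide precursors such as proenkephalin, had the smallest p-value there (log2 fold change -1.36 ± 0.36, adjusted p-value 0.0832, 0.00835 under the block, 6 to 34 counts per library). PCSK1 was at -1.67 (0.0126) without Aβ42 replicate 2. SSTR1, another somatostatin receptor, had a log2 fold change of 0.30 ± 0.19, or 0.48 (0.0379) without that library, and SSTR5 had 0 counts in every library.

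The genes whose pattern over the 6 libraries was most like EOMES were CD200, TANC2, CENPK, EZH2 and SLC30A1, each with a Pearson r of 0.99 or more among 11516 genes of at least 5 CPM. As 1023 of those genes had r above 0.9, such likeness was common over 6 libraries. CENPK, a kinetochore protein, averaged 12.3 CPM in vehicle and 8.19 CPM after Aβ42, and SLC30A1, a zinc exporter, 84.7 and 64.1 CPM. For the mean of the 9 genes the most alike were SPIN1, C5orf15, RAB2A, GTF2H3 and CELF2, with log2 fold changes from -0.30 to -0.06, and 802 genes had r above 0.9.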

How the data were processed

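The deposited table holds a value per gene and library in 2 units. The first is headed as counts of reads, but whole numbers made up just 86.9% to 87.5% of a library's values, so they were taken as estimated counts deposited by the authors. The counts of the 9 genes were whole in every library. The second unit is TPM, scaled by the authors for gene length and library total. The submitters' processing notes name STAR 2.7.11b, featureCounts 2.0.6, FastQC and GRCh38, without roles. The annotation and the use of strand are not given in the sources used here. Gene positions are from RefSeq (GRCh38.p14) and were joined by symbol.

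Estimated counts were rounded, filtered with filterByExpr (13842 genes kept), scaled by TMM and compared with the quasi-likelihood test of edgeR 4.0.16 (robust, two-sided) in R 4.3.3. Benjamini-Hochberg adjustment ran over all genes tested, with a threshold of 0.05. The SE was derived from the fold change and the F statistic. DESeq2 1.42.0, limma 3.58.1, TPM with pseudocounts of 1 and 0.1, other scalings and filters, the replicate block and leaving out each library were alternatives (15 fits). The code was tested on simulated independent libraries, which held no replicate pairing and no atypical library, so that test does not cover these features.

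Genes and lists were chosen with earlier results of these data known. The 9 genes were named whatever their result, as were 10 reference genes, with the 2 genes of smallest p-value per list; some genes of the rule are not reported here. Likeness is Pearson r of log2 CPM (prior count 2). Deviations from the group means correlated between libraries of the same number at 0.192, 0.409 and 0.135 (12187 genes averaging at least 50 counts). The numbers were treated as pairing in the block on the evidence of the data alone, as the series names none. Correlations between different numbers are not reported, and deviations within a group cancel out. A match of replicate 2 alone could thus raise the other values, so pairing is not established. Chi-square per gene between any 2 libraries was 3.16 to 21.2, so none was a repeat of another. Counting errors cover counting alone, since no molecular identifiers are mentioned.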

Additional observations from a re-analysis of the deposited data

How the results depend on the processing

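Under limma-voom, both TPM scales, upper-quartile or RLE scaling, and a minimum mean of 10 counts, 0 genes and 0 of the 9 passed, with 3270 to 3335 genes and 8 of the 9 at an unadjusted p-value under 0.05. The counts past the threshold were 360 genes and 3 of the 9 with no filter on low counts, 814 and 4 by DESeq2, and 1962 and 6 with the replicate block. Without each library in turn they ran from 0 to 3224 genes and from 0 to 6 of the 9, with calls only without Aβ42 replicate 2. The cause of these differences was not tested. The 8 lower genes kept their direction in all 15 alternatives. Their median with NEUROG2 on the log2 scale ran from -0.81 to -0.64.

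Signs changed for genes near 0. With TPM pseudocounts of 1 and 0.1, NEUROG2 was at -0.00793 and -0.00803, EMX1 at -0.0607 and -0.0631, PAX6 at -0.0134 and -0.0135, and DLL1 at -0.0322 and -0.0337, where the median of all genes was -0.0401 and -0.0434. Under upper-quartile scaling DLL3 was at 0.0025 and NEUROD6 at 0.014. Leaving out each library in turn gave -0.00534 to 0.0977 for NEUROG2, -0.00687 to 0.0883 for PAX6, -0.0572 to 0.0725 for DLL1, -0.0814 to 0.0535 for DLL3 and -0.0311 to 0.0370 for NEUROD6. Counts of 9 to 28 per library limit the precision of NEUROG1.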
